A study of Mus musculus with 2 samples.

Results

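The genes described here are 8 genes of migrating limb muscle precursors, namely Lbx1, Met, Hgf, Gab1, Cxcl12, Cxcr4, Six4 and Eya1, read in mouse limb buds taken whole at E10.5. They were chosen by name, and every probe set annotated with exactly 1 of these symbols was read separately, which gave 21 probe sets of 34945 with a single symbol and 8 genes of 18193. The series holds 1 array of Bhlha9 knockout limb bud and 1 array of wild-type limb bud, both from C57BL/6 mice kept free of specific pathogens. The deleted gene, Bhlha9, codes for a limb bud transcription factor of the basic helix-loop-helix class. The kind of deletion, the number of embryos behind each RNA and the mixture of fore and hind limb buds are not stated in the labels or the design text. With 1 array per genotype there was no test and no biological error, so "higher" and "lower" compare these arrays only.

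The muscles of the limb do not arise in the limb bud itself. Their precursors leave the ventrolateral dermomyotome of the somites at limb level, travel as single cells into the bud and differentiate there. The tyrosine kinase receptor MET on the precursors binds hepatocyte growth factor (HGF), which the limb mesenchyme secretes, and signals through the adaptor GAB1 to release the cells. The homeobox factor LBX1 is needed for their lateral migration, the chemokine CXCL12 and its receptor CXCR4 guide a share of them, and homeobox factors of the sine oculis family, such as SIX4, act upstream with their EYA cofactors, partly through the gene of the paired-box factor PAX3. All of these genes are also active in other embryonic tissues, Lbx1 in neurons of the dorsal spinal cord.

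Promoter sequences from RefSeq (GRCm38.p6) were available for 6 of the 8 genes, in 9 windows of 300 bases that run from 250 bases before a start site to 50 after it. They are shown because Bhlha9 belongs to the helix-loop-helix class, whose members bind E-boxes (CANNTG, a motif that reads the same on both strands), and because SIX4 and its relatives bind the MEF3 site (TCAGGTTTC, searched on both strands). An E-box was found in 2 of the 9 windows, that of Met and the upstream one of Hgf, against 72.3% of 32851 promoter windows of the same length. The windows of Gab1, Cxcl12, Cxcr4 and Six4 held none. Those of Gab1 overlap each other, as do those of Six4, so the 9 windows are not separate readings. The MEF3 letters were found in 1 window, of Six4, and in 0.429% of all windows. Such a match describes the letters alone, and a window without one says nothing of the factor. The 250 bases before the upstream Hgf start site (chr5:16553245-16553494, plus strand) and the stretches of 30 bases around the Met E-boxes (chr6:17463819-17463848 and chr6:17463970-17463999, plus strand) and around the Six4 MEF3 site (chr12:73113325-73113354, minus strand, with the motif on the opposite strand) follow, with the matched letters in capitals.
Hgf: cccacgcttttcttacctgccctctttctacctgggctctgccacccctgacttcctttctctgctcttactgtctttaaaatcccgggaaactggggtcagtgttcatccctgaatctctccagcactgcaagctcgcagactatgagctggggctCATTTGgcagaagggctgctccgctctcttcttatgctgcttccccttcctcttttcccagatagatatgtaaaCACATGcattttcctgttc
Met, upstream E-box: gggacgaacagaCACGTGctggggcgggta
Met, E-box after the start site: cggcccgggccgCAGGTGacccggacggcc
Six4: tggcctggggGAAACCTGAtcggccagatc

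Signals are given in MAS 5.0 units on a linear scale, and a probe set counted as detected above the 40th percentile of its array, 41.8 on the knockout and 41.2 on the wild-type array. Median signals were 77.3 on the knockout and 79.6 on the wild-type array. The single Bhlha9 probe set read 1.70 on the knockout array and 7.87 on the wild-type array, under both thresholds, so it checked no label. Of 17 control genes specific to other organs, 1 was above the threshold on the knockout array and 2 on the wild-type array. Log2 ratios are taken as knockout minus wild-type. Without replicates, the only error available was the disagreement between probe sets of the same gene, taken over 5440 genes as a robust SD of 1 log2 ratio. It was 0.28 over all of them, 0.46 at signals up to 123 and 0.15 at signals above 1210, with each pair placed by its dimmer probe set. A single probe set was given the error found at its own mean signal, so this error is approximate. It leaves out any difference between embryos, dissections or RNA preparations.

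The 8 genes did not move together. Both probe sets of Lbx1 and all 3 of Hgf were lower on the knockout array. Met, Cxcr4, Cxcl12 and Eya1 were higher in every detected probe set, Gab1 was clearly higher in 1 of 3, and Six4 had ratios on both sides of zero. Detection on 1 array or both was reached by 19 probe sets. A 2-fold higher signal was seen in 0 of them, against 3.38% of all single-symbol probe sets, and a 2-fold lower one in 1, against 3.89%. At 1.5-fold, 4 of 19 were higher, against 10.6%, and 2 were lower, against 14.2%. Among the 17 detected on both arrays, 10 ratios were positive (46.7% of all probe sets) and 7 negative (53.3%), with a median of 0.17 for the members and -0.04 for all 20895. By the brightest probe set of each gene the median over the 8 was 0.64, with 6 positive ratios (49.1% of all genes) and 2 negative (50.9%), and with 4 genes at least 1.5-fold higher (11.2%) and 1 at least 1.5-fold lower (11.7%). With the threshold at the 20th percentile, 4 dim probe sets, 1 each of Met, Cxcl12, Six4 and Eya1, passed 2-fold upwards (11.1% of all probe sets) and 1 of Lbx1 downwards (9.94%).

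**Figure D1:**
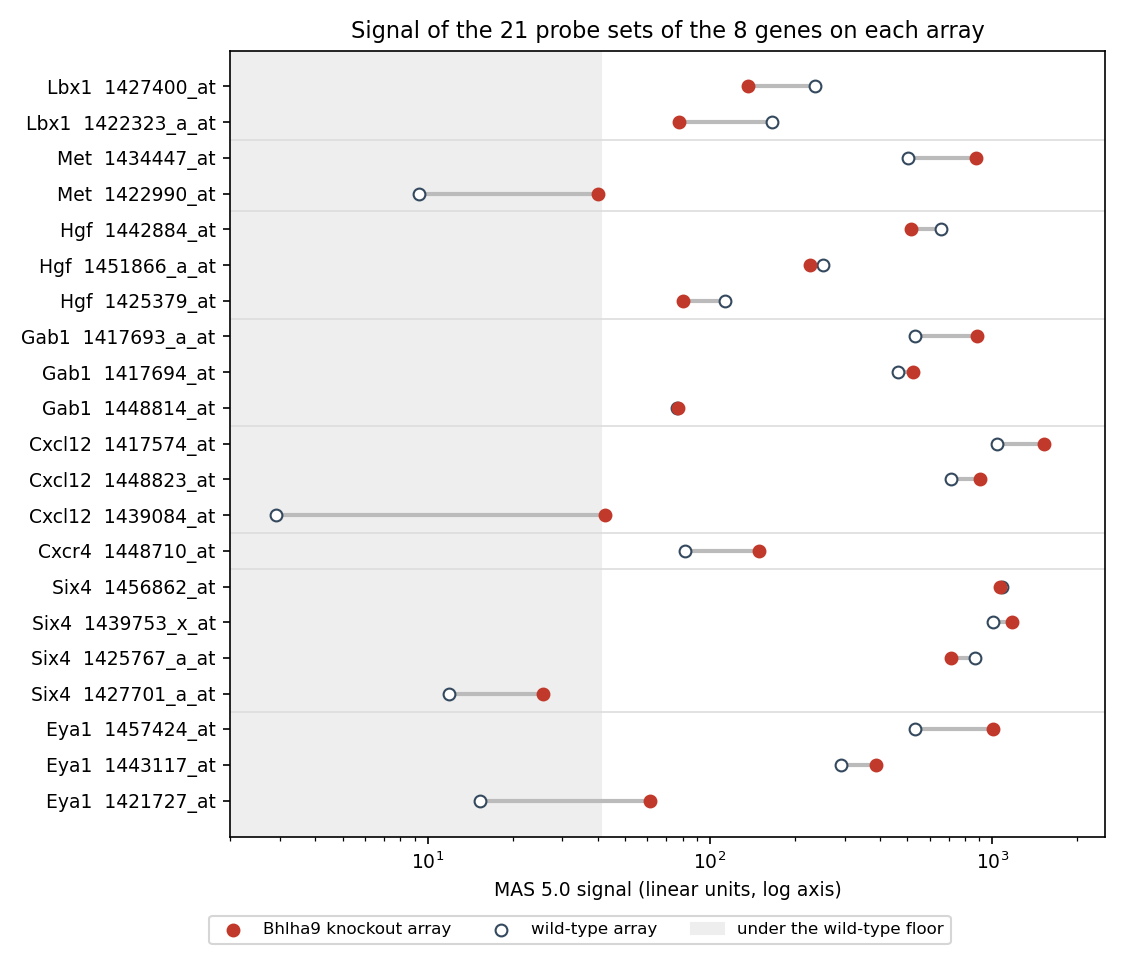
Signal of each of the 21 probe sets (rows, grouped by gene) on the Bhlha9 knockout array (filled points) and the wild-type array (open points), in MAS 5.0 units on a log axis; the shaded range lies under the wild-type detection threshold of 41.2. The filled points lie left of the open ones for every probe set of Lbx1 and Hgf, and right of them for every probe set of Met, Gab1, Cxcl12, Cxcr4 and Eya1. For Gab1 1448814_at, at 76.8 on the knockout array and 76.1 on the wild-type array, they nearly coincide.

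Lbx1, the homeobox gene that marks the migrating precursors, was the only member with a probe set past 2-fold. Probe set 1427400_at read 136 on the knockout array and 236 on the wild-type array, a log2 ratio of -0.80. Probe set 1422323_a_at read 77.9 on the knockout array and 166 on the wild-type array, a log2 ratio of -1.09, or 2.13-fold lower. The 2 probe sets thus gave the same direction and differed from each other by 0.29, less than the error of 0.37 to 0.46 at these signals, and each ratio was 2.17 to 2.36 times its own error. The direction held under each scaling and threshold that gave a ratio. The ratio of the dimmer probe set was -0.85 to -1.09 in them, the call at 2-fold was lost after loess scaling and with a pseudocount of 32, and with the threshold at the 60th percentile it was not detected on either array. The suffix of this dimmer probe set marks probes shared between transcripts. The call was also lost when suffixed probe sets were left out, or when only the brightest of each gene was read. In whole limb buds, fewer cells of a type and less RNA per cell cannot be told apart.

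The genes beside Lbx1 in the genome were read as well, a choice made after the values were seen. Of the 3 protein-coding neighbours on one side, Tlx1 and Kazald1 were under the threshold on both arrays and Sfxn3 had a log2 ratio of -0.31. On the other side Btrc, a ubiquitin ligase subunit, had detected probe sets at 0.47, 0.07 and -0.27. The DNA polymerase gene Poll read 158 on the knockout array and 307 on the wild-type array, at -0.96, and Dpcd stood at 0.11. Btrc lies between Lbx1 and Poll. Its ratios were about the size of the error at these signals, 0.37 to 0.46, or smaller, so they set no direction.

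The receptor of the HGF system was higher and its ligand lower. Met probe set 1434447_at read 875 on the knockout array and 504 on the wild-type array, a log2 ratio of 0.80, or 1.74-fold higher, which is 3.57 times the error at this signal. The other Met probe set, 1422990_at, was under the threshold on both arrays, at 39.98 on the knockout and 9.29 on the wild-type array, and gave no ratio. Hgf was lower in all 3 of its probe sets. The brightest, 1442884_at, read 515 on the knockout array and 657 on the wild-type array, a log2 ratio of -0.35. The dimmest read 80.5 on the knockout array and 113 on the wild-type array, a ratio of -0.49. The remaining one gave -0.15, from 227 on the knockout array and 252 on the wild-type array. The Hgf ratios were 0.41 to 1.57 times the error at their signals, and the 3 probe sets read the same RNA, so they are not replicates.

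Gab1, the docking protein that carries the MET signal, gave probe sets that disagreed in size. Probe set 1417693_a_at read 883 on the knockout array and 533 on the wild-type array, a log2 ratio of 0.73, or 1.66-fold higher. Probe set 1417694_at had a ratio of 0.17, and 1448814_at, near the threshold at 76.8 on the knockout array and 76.1 on the wild-type array, had a ratio of 0.01. The ratios spanned 0.72. The error of 0.22 to 0.46 at these signals is that of 1 ratio, not of a span over 3. The clearly higher reading came from 1 of 3 probe sets, one whose suffix marks probes shared between transcripts.

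The chemokine and its receptor were both higher on the knockout array. Cxcl12, which limb mesenchyme secretes, read 1526 on the knockout array and 1040 on the wild-type array by 1417574_at, a log2 ratio of 0.55. Its second probe set, 1448823_at, read 903 on the knockout array and 712 on the wild-type array, a ratio of 0.34. The ratios were 3.69 and 1.54 times the error at their signals. The dimmest, 1439084_at, read 42.4 on the knockout array, just above the threshold, and 2.91 on the wild-type array, at least 1.03-fold higher. The single Cxcr4 probe set read 149 on the knockout array and 81.5 on the wild-type array, a log2 ratio of 0.87, or 1.83-fold higher. At this low signal the error was 0.46, so the Cxcr4 ratio was 1.88 times its error although it was larger than that of Cxcl12.

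Six4 and Eya1 differed from each other. Eya1, which encodes a cofactor of SIX4 and its relatives, had the highest ratio of the 8 genes. Its probe set 1457424_at read 1002 on the knockout array and 533 on the wild-type array, a log2 ratio of 0.91, or 1.88-fold higher, and 4.07 times the error. A second read 388 on the knockout array and 292 on the wild-type array, a ratio of 0.41. The dimmest was detected on the knockout array alone, at 61.3 against 15.4 on the wild-type array, at least 1.49-fold higher. Six4 was among the brighter genes and hardly differed. Its 3 detected probe sets read 1178, 1064 and 711 on the knockout array and 1001, 1084 and 866 on the wild-type array, with ratios of 0.23, -0.03 and -0.29. The probe set with the positive ratio carries the suffix of probes prone to cross-hybridisation, and the dimmest was under the threshold on both arrays.

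**Figure D2:**
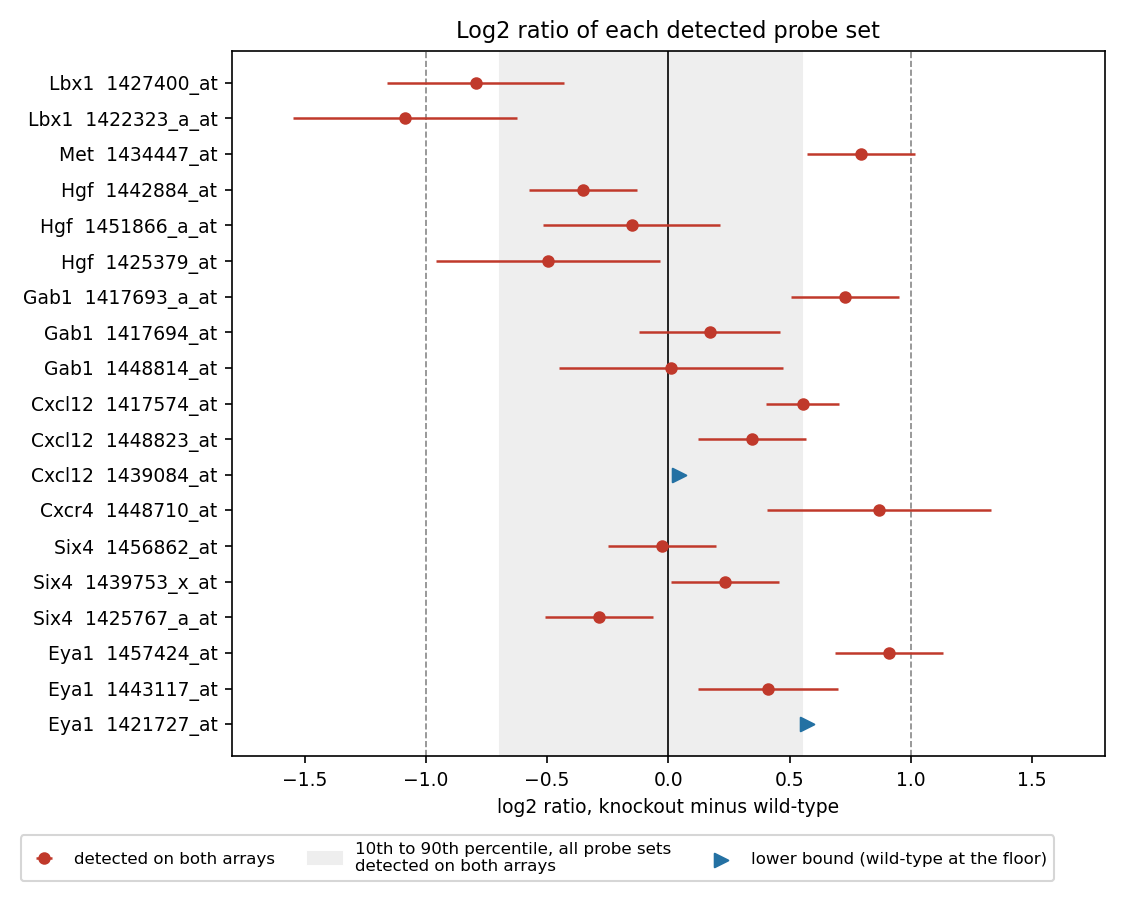
Log2 ratio (knockout minus wild-type) of the 19 detected probe sets; bars are the robust SD between probe sets of 1 gene at that signal, triangles are lower bounds where the wild-type array was under the threshold, dashed lines mark 2-fold, and the shaded band runs from the 10th to the 90th percentile of 20895 probe sets (-0.69 to 0.55). Both Lbx1 points lie below the band. The Met and Cxcr4 points and the highest point each of Gab1 and Eya1 lie above it, and 1 Cxcl12 point and the Eya1 triangle lie at its upper edge. The bars of these Lbx1, Cxcr4 and Gab1 points reach back into the band.

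By the brightest probe set of each gene, most other markers of limb muscle precursors were not lower as Lbx1 was. Of 12 such genes on the arrays, 10 were detected on at least 1 array. Dmrt2, a dermomyotome factor, was 2.03-fold higher, with 345 on the knockout array and 169 on the wild-type array. It was the 1 gene of 10 at least 2-fold higher, where 4.15% of all genes were, and it fell short of 2-fold with a pseudocount of 32. Msx1, a homeobox gene of precursors but above all of limb mesenchyme, was 2.59-fold lower, with 1597 on the knockout array and 4137 on the wild-type array, and it was the 1 gene at least 2-fold lower, where 2.65% of all genes were. It is also in the mesenchyme list below. Among the 9 detected on both arrays 8 ratios were positive (49.1% of all genes) and the median was 0.16, beside -0.01 for all 11491 genes. The positive ratios included values near zero, 0.08 for Efna5, 0.07 for Meox2 and 0.01 for Epha4.

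Pax3, the paired-box gene at the head of this programme, was looked at after its values were seen. It was at 0.60, -0.29 and 0.09 in its 3 probe sets, so these did not settle a direction. The brightest read 744 on the knockout array and 490 on the wild-type array. Meox1 of the somite, chosen in the same way, stood at 0.68, while Meox2 and the guidance receptor Epha4 were at 0.07 and 0.01 by their brightest probe sets. The other Meox2 probe set gave -0.13. The further Epha4 probe sets detected on both arrays were all negative, at -0.32, -0.72 and -0.94. Pax7 was under the threshold on both arrays.

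In the HGF and MET pathway, 19 genes were detected. By the brightest probe set of each, a 2-fold higher signal was found for 2 of them (4.15% of all genes) and a 2-fold lower one for 1 (2.65%), and 8 of 18 ratios were positive (49.1% of all genes), with a median of -0.11. The higher genes were both inhibitors of the proteases that activate HGF. Spint1 read 239 on the knockout array and 108 on the wild-type array, at 1.15, and Spint2 read 1174 on the knockout array and 559 on the wild-type array, at 1.07, with 1.03 by its other probe set. Spint1 fell short of 2-fold with the threshold at the 60th percentile and with the pseudocount. Both are epithelial genes, and epithelial markers were higher on the same array, as given below. Stat3, a transcription factor that MET can activate, was at -1.11 by its brightest probe set, with 208 on the knockout array and 449 on the wild-type array. Its other probe set detected on both arrays gave -0.38, the remaining ones were above the threshold on the knockout array alone, and the call was lost after quantile or loess scaling and with the mean over the probe sets of the gene. The brightest adaptor and effector genes were Crk, Ptpn11 and Plcg1, at 0.52, -0.17 and -0.24. Dimmer probe sets of Plxnb1, Ptpn11 and Cbl, detected on both arrays and named after their values were seen, were past 2-fold lower, at -1.45, -1.20 and -1.18, so the count of lower genes depends on the probe set read.

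Around CXCL12, 2-fold higher signals were found for 2 of 10 detected genes (4.15% of all genes) and 2-fold lower ones for 0 (2.65%), and 4 of 9 ratios were positive (49.1%). Ackr3, the scavenger receptor that shares CXCL12 with CXCR4, read 2979 on the knockout array and 1458 on the wild-type array, a log2 ratio of 1.03. Ligand and both receptors were thus higher on this array. Cxcl14, a related chemokine of epithelia, was 4.71-fold higher by its brightest probe set, with 495 on the knockout array and 105 on the wild-type array, but its other probe set gave 0.18. The G protein subunits Gnai3 and Gnai2 stood at 0.51 and -0.03.

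Among the relatives of Six4, Eya1 and their Dach partners, 2 of 8 detected genes passed 2-fold upwards (4.15% of all genes) and 0 downwards (2.65%), with 4 of 6 ratios positive (49.1%) and a median of 0.41. Six2 read 140 on the knockout array and 53.0 on the wild-type array, at 1.40. Dach2, a corepressor gene expressed in the dermomyotome, read 420 on the knockout array and 203 on the wild-type array, at 1.05, with 0.34 by its other probe set. Six2 was under the threshold on both arrays when this was set at the 60th percentile, and Dach2 fell short of 2-fold with the pseudocount and by the mean over its probe sets. The brightest of the rest were Dach1 at 0.44, Eya3 at -0.22 and Eya4 at 0.37. Dach1 and Dach2 each had a further probe set detected on both arrays, and that of Dach1 was negative, at -0.20.

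**Figure D3:**
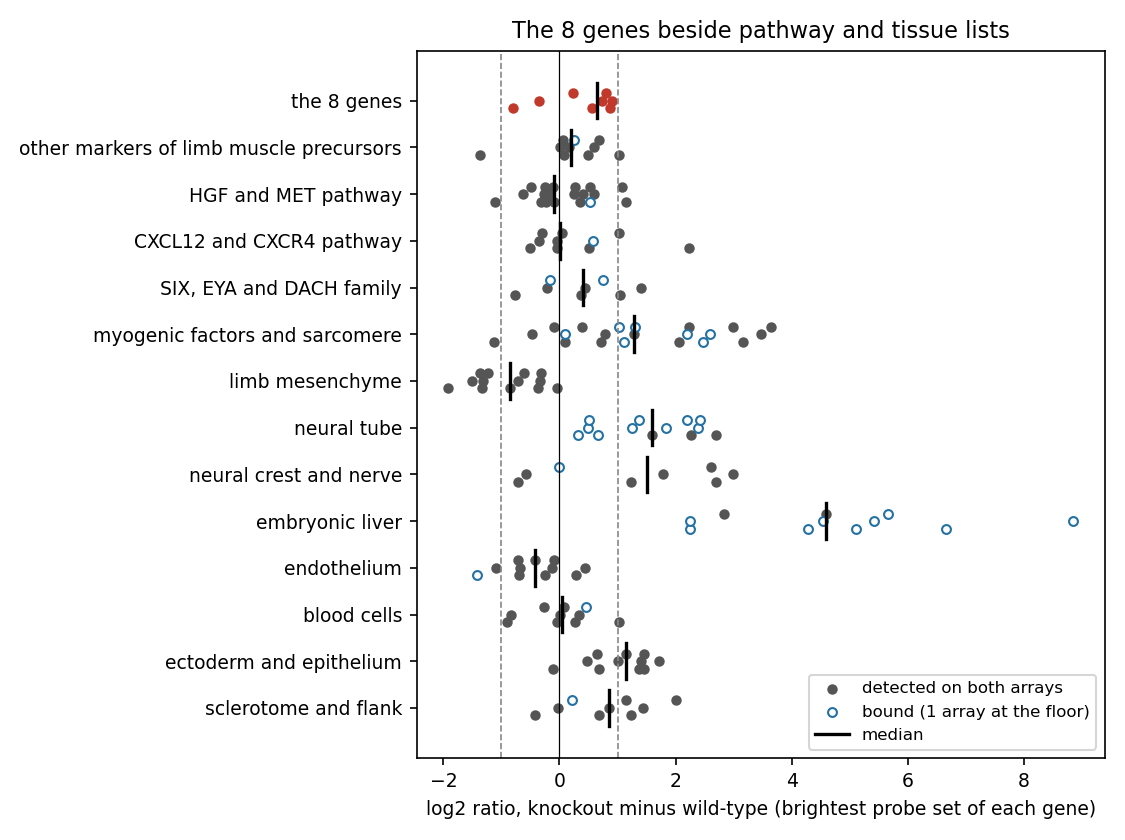
Log2 ratio (knockout minus wild-type) of the brightest probe set of each detected gene, for the 8 genes (top row) and for lists of pathway and tissue genes; open circles are bounds where 1 array was under the threshold, vertical ticks are medians with bounds included, and dashed lines mark 2-fold. The 8 genes lie between -0.80 and 0.91, within a narrower range than the muscle, neural and liver lists.

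Markers of tissues that also express these genes differed between the arrays, and their part in the readings above was not tested. These lists were chosen with earlier results of these data known. Limb mesenchyme, a source of Hgf and Cxcl12, was detected throughout, in 13 of 13 genes on both arrays, with a summed signal of 25769 on the knockout array and 43213 on the wild-type array. All 13 ratios were negative (50.9% of all genes), 6 genes were at least 2-fold lower (2.65%), and the median was -0.86. Lmx1b, Tbx15, Msx1 and Lhx9 were at -1.92, -1.50, -1.37 and -1.34, and the broadly expressed Prrx1 and Pdgfra at -0.33 and -0.04. The Hgf ratios lay in the direction of this list and the Cxcl12 ratios against it.

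Differentiating muscle was read in 23 genes, of which 21 were detected. At least 2-fold higher were 13 of them (4.15% of all genes) and at least 2-fold lower 1 (2.65%). On the wild-type array 9 of the 23 were under the threshold, so part of the higher calls rest on bounds. The lower gene was the acetylcholine receptor gene Chrna1, at -1.13, a call lost with the threshold at the 60th percentile and with the pseudocount. The summed signal was 6974 on the knockout array and 3376 on the wild-type array. Tnnc1, Myl4, Mylpf and Tnnc2, all of the contractile apparatus, were 12.6-fold, 11.1-fold, 8.98-fold and 7.90-fold higher, while Actc1 was at -0.47. Among muscle regulators, Myog was 4.15-fold higher, with 369 on the knockout array and 89.1 on the wild-type array. Myf5 was 2.44-fold higher, with 290 on the knockout array and 119 on the wild-type array. Myod1 and Myf6, under the threshold on the wild-type array, were at least 2.17-fold and 1.07-fold higher. The regulator Mef2c was at 0.09. With the threshold at the 60th percentile 5 genes of this list were at least 2-fold higher. Of the 14 genes of this list detected on both arrays 11 ratios were positive (49.1% of all genes) and 3 negative (50.9%). Lbx1 thus ran against most of this list, but not all of it.

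Neural tube genes include regulators of the dorsal spinal cord, where Lbx1 is also active. They passed 2-fold upwards in 9 of 13 detected members (4.15% of all genes) and downwards in 0 (2.65%). Their summed signal was 3875 on the knockout array and 785 on the wild-type array. On the wild-type array 11 of 14 were under the threshold, among them Tlx3, a factor of dorsal neurons. Tlx3 read 51.7 on the knockout array, not far above the threshold, and 14.2 on the wild-type array, a bound of at least 1.25-fold higher. With the threshold at the 60th percentile 3 neural tube genes passed 2-fold. Nerve and neural crest genes summed to 5690 on the knockout array and 1845 on the wild-type array. Of 8 detected, 5 were at least 2-fold higher (4.15% of all genes) and 0 lower (2.65%). The neural crest genes in that list went both ways, with Sox10 and Ngfr at -0.72 and -0.57 and Erbb3 at 1.24. Foxd3 was barely above the threshold, on the wild-type array alone, and its bound of -0.01 showed no difference.

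Embryonic liver, whose precursor cells express Met, stood at least 2-fold higher in 11 of 11 markers (4.15% of all genes). On the wild-type array 9 of the 11 were under the threshold. The summed signal of the liver markers was 34314 on the knockout array and 379 on the wild-type array. Of 11 epithelial genes, 7 passed 2-fold upwards (4.15% of all genes) and 0 downwards (2.65%). Their sums were 11062 on the knockout array and 6312 on the wild-type array. Sclerotome and flank genes were at least 2-fold higher in 4 of 9 (4.15% of all genes) and at least 2-fold lower in 0 (2.65%). Of their 8 ratios 6 were positive (49.1%), with sums of 3375 on the knockout array and 1902 on the wild-type array. The Met and Eya1 ratios lay in the direction of these lists, as did those of Gab1, Cxcl12 and Cxcr4. The Lbx1 and Hgf ratios lay against it.

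Endothelium and blood cells can both express Cxcr4. Of 11 endothelial genes 0 passed 2-fold upwards (4.15% of all genes) and 2 downwards (2.65%). These were Kdr at -1.09 and Tie1, which was under the threshold on the knockout array, by at least 2.69-fold. The Tie1 call was lost with the threshold at the 60th percentile. The summed signal of the endothelial genes was 5669 on the knockout array and 6864 on the wild-type array. Of 10 blood genes 1 passed 2-fold upwards (4.15% of all genes), the erythroid factor Klf1 at 1.02 (under 2-fold with the pseudocount), and 0 downwards (2.65%). The blood sums were 91986 on the knockout array and 86936 on the wild-type array. Of the 9 blood genes detected on both arrays 5 ratios were positive (49.1% of all genes), with a median of 0.01. The leukocyte genes of the list, singled out after their values were seen, differed in sign, with Csf1r at -0.90, Ptprc at -0.84 and Spi1 at least 1.37-fold higher.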

How the data were processed

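RNA of 2 limb bud samples was measured on Affymetrix Mouse Genome 430 2.0 arrays, 1 per genotype. ISOGEN was used to extract RNA and 200 ng of it was labelled by reverse transcription, per the labels' protocols. Per the series' design text, the authors summarised the probes with MAS 5.0, and the deposited values are intensities on a linear scale. MAS 5.0 scales each array on its own, so a difference in tissue make-up can shift the readings of other genes, which was not tested. Low signals are noisy. The number of arrays limits the precision.

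After 64 control probe sets were set aside, 45037 remained. Of these 34945 had 1 gene symbol (34741 matched a RefSeq gene of GRCm38.p6 by Entrez identifier, 0 renamed), 932 had several and 9160 were unnamed here. The array annotation names no build, so coordinates are given only for the RefSeq promoter sequences, and RefSeq gave the order of genes around Lbx1. Signals under the 40th percentile were raised to it, a ratio with 1 array at this floor is a bound, and with both it was not computed. Genes in lists were read by their brightest probe set. Named from each list were genes past 2-fold (all if 5 or fewer, otherwise up to 4 of the largest detected on both arrays) and up to 3 of the brightest, with tissue lists given mainly by counts. No gene was ranked by likeness of pattern, since 2 arrays give none. Members and lists were chosen with earlier results of these data known. Alternatives covered scaling, floor, pseudocount, fold threshold and choice of probe sets. The steps were tested on simulated data. The tools were limma 3.58.1 in R 4.3.3 and, in Python 3.11.15, pandas 2.3.3, numpy 2.4.6 and matplotlib 3.10.9.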

Additional observations from a re-analysis of the deposited data

How the results depend on the processing

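With 1 array per genotype the direction of each ratio is that of these libraries, and no replicate could be left out. No paired analysis was possible because each genotype has 1 sample. Over 6 alternatives (division by the array median, quantile and loess scaling, thresholds at the 20th or 60th percentile, and a pseudocount of 32 with no threshold), 18 of the 19 detected member probe sets kept their sign wherever a ratio could be given. The exception was 1 probe set of Six4, at -0.03 to 0.03. The median log2 ratio over member probe sets was 0.17, and 0.21 to 0.33 in these alternatives, highest with the pseudocount. The count of probe sets at least 2-fold lower was 1, and 0 after loess scaling, with the threshold at the 60th percentile, with the pseudocount, without probe sets shared between transcripts and with 1 probe set per gene. It was 2 at a threshold of 1.5-fold. The count at least 2-fold higher was 0, and 1 with the pseudocount, 4 at 1.5-fold and 4 with the threshold at the 20th percentile. These last 4 are dim probe sets of Met, Cxcl12, Six4 and Eya1, with wild-type signals of 9.29, 2.91, 11.9 and 15.4, and at that threshold 11.1% of all probe sets were called higher. The lower threshold moved the Cxcl12 and Eya1 bounds to 2.44 and 2.00, and the pseudocount to 1.09 and 0.98. Of the counts for pathway and tissue lists, 197 stayed within 1.5 times their value and 27 did not.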
